A study of Mus musculus with 57 samples.

Results

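The effect of removing the insulin receptor from intestinal epithelium was examined in the untreated distal colon, as villin-CRE-INSR-/- mice against INSRfl/fl mice. The comparison used 20 of the 57 arrays of the study, 10 per genotype, taken by the genotype and treatment in their labels, and all 22180 genes that have a probe set with 1 gene symbol. The knockout carries Insr alleles flanked by loxP sites and a Cre recombinase under the villin promoter, which is active in epithelial cells of the intestine and not in muscle, stroma or blood cells. The INSRfl/fl mice (here fl/fl) carry the same floxed alleles. All mice were C57BL/6 adults of 18 to 24 weeks. The treatment protocol, which is written for the treated mice, names females and fl/fl littermates, and the labels give neither for the untreated mice. Whole distal colon RNA was hybridised to Affymetrix whole-transcript arrays, so the labels do not restrict the RNA to epithelium. The remaining arrays of the study hold colon and tumors of the same genotypes after azoxymethane and dextran sulfate sodium (AOM+DSS): 10 arrays per genotype of colon, 9 of knockout tumors and 8 of fl/fl tumors. The mice given this treatment received 7.4 mg/kg azoxymethane and then 3% dextran sulfate sodium for 7 days. Those arrays lent the fit its estimate of the spread, and their own genotype differences are given for the genes named in untreated colon.

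The insulin receptor is a receptor tyrosine kinase that binds insulin and insulin-like growth factors and phosphorylates the docking proteins Irs1 and Irs2. These recruit phosphoinositide 3-kinase, which leads to activation of Akt, to growth and anabolic metabolism, and to export of FoxO transcription factors from the nucleus. In liver, FoxO factors raise Irs2 transcription when insulin signalling is low.

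Expression values are deposited on the log2 scale, so a difference of 1 is a factor of 2. A gene was called changed at a Benjamini-Hochberg adjusted p under 0.05 in limma over all 22180 genes, and differences are knockout minus fl/fl ± the standard error (SE). The labels call the samples biological replicates. Markers of epithelium were among the brightest genes of these arrays, with a mean over the 14 measured members of the pan-epithelial list of 11.4 ± 0.076 (SD, n = 10) in knockout and 11.4 ± 0.070 (SD, n = 10) in fl/fl. Smooth muscle genes were about as bright, with a mean over 12 genes of 11.35 ± 0.090 (SD, n = 10) in knockout and 11.31 ± 0.14 (SD, n = 10) in fl/fl. Macrophage and B cell genes were measured as well. In such bulk RNA, fewer cells of a type and less RNA per cell cannot be told apart. Knockout replicate 2 stood apart. Its mean correlation with the other untreated knockout arrays was 0.9815. For the remaining untreated arrays, each set against those of its own genotype, the value was 0.9866 to 0.9917. The mean of the posterior Hox genes (the distal colon position list of 6 genes) was 6.93 in knockout replicate 2. That mean was 8.69 to 8.92 in the other knockouts and 8.50 to 9.09 in fl/fl. Values that this array moved by over 1.5 times, or across a limit used here, are given with and without it.

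Insr was the 1 gene that passed the test. In knockout colon its lowest, median and highest log2 values were 7.74, 8.04 and 8.29, and in fl/fl 8.70, 9.01 and 9.16. All 10 knockouts lay below all 10 fl/fl arrays. The difference was -0.94 ± 0.098 (95% interval -1.13 to -0.74, limma adjusted p = 6.71e-09), which left 52.3% of the fl/fl signal in the knockout. A two-sided permutation test of the group means with 100000 permutations gave p = 2e-05. No other gene separated the genotypes without overlap: 1 gene (0.00451% of all tested) was lower in every knockout than in every fl/fl array, and 0 genes (0%) were higher. The probe table does not give the part of Insr that its probe set covers, so the residual 52.3% is a probe signal and not a measure of deletion.

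The remaining Insr signal was set against the mean of the epithelial and of the smooth muscle genes within each genotype, a family of 4 relations over 10 arrays each. The strongest was with smooth muscle genes among the knockouts, with Pearson r = 0.432 (permutation p = 0.206) and Spearman rho = 0.527 (permutation p = 0.124). Its adjusted p was 0.645, and r was 0.337 without the 2 arrays farthest from the median. Among fl/fl arrays the relation with epithelial genes had r = 0.354 (permutation p = 0.323) and rho = 0.200 (permutation p = 0.583), with an adjusted p of 0.645 and r = 0.158 without the 2 farthest arrays. With epithelial genes among knockouts r was -0.197 (permutation p = 0.585) and rho -0.297 (permutation p = 0.405), with an adjusted p of 0.78 and r = -0.336 without 2 arrays. For fl/fl and smooth muscle genes r was 0.0726 (permutation p = 0.839) and rho -0.0667 (permutation p = 0.865), with an adjusted p of 0.839 and r = -0.0476 without 2 arrays. None of the 4 relations passed.

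**Figure D1:**
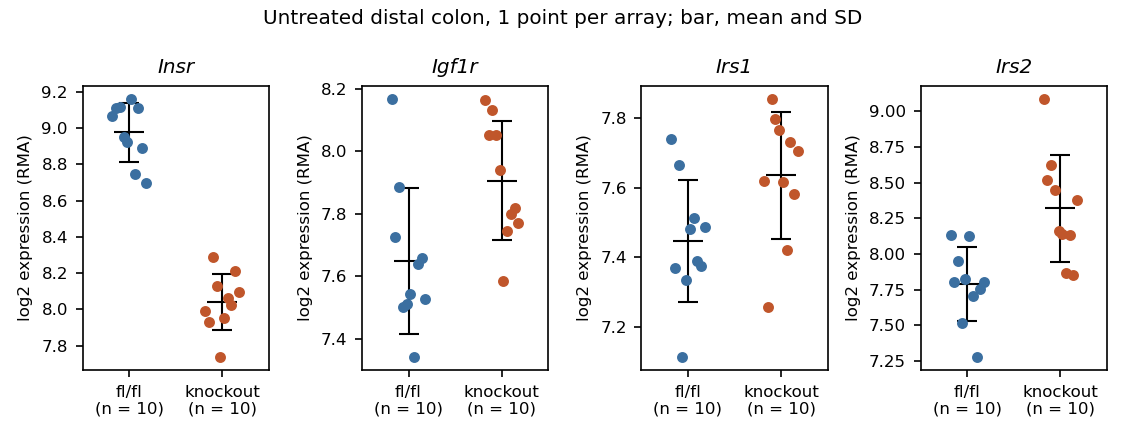
Log2 expression of Insr, Igf1r, Irs1 and Irs2 on the y axis in each of the 10 fl/fl (blue) and 10 knockout (orange) untreated arrays, 1 point per array, with bars for the group mean and SD. The Insr points do not overlap (highest knockout 8.29, lowest fl/fl 8.70), while those of Igf1r, Irs1 and Irs2 do.

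Irs2 and Irs1, the docking proteins directly below the receptor, had higher means in knockout without passing the test. Their promoters are shown because both hold the heptamer CAAAACA, the core of insulin response elements bound by FoxO factors, here as its reverse complement TGTTTTG. The windows run from 250 bases before to 50 after the RefSeq transcription start (GRCm38.p6), both genes lie on the minus strand, and capitals mark the heptamer. The Irs2 window is chr8:11008880-11009179 and the Irs1 window chr1:82291390-82291689.
Irs2: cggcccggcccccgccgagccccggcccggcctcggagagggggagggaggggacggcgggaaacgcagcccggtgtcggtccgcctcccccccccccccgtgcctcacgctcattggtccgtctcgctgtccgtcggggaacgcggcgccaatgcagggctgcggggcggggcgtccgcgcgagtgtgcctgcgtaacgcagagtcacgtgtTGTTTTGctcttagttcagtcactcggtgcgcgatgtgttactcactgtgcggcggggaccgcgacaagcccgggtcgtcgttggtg
Irs1: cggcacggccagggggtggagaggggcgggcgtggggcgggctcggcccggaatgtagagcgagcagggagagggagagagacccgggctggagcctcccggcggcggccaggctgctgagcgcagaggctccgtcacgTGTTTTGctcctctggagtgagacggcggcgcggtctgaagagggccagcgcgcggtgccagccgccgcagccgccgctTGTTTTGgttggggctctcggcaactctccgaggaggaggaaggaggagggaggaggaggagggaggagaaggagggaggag
In Irs2 the heptamer starts at base -37 from the start site, and in Irs1 at -111 and -32. Both strands were searched for CAAAACA, and 7.2% of the 27025 genes with a window hold it, 2 of the 20 named genes with a window among them. A second FoxO string, GTAAACA (reverse complement TGTTTAC), was in 4.05% of genes and in 0 of the 20. The 2 strings were counted separately, and a match of letters is no measure of binding.

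Irs2 values ran from 7.85 through a median of 8.27 to 9.09 in knockout and from 7.28 through 7.80 to 8.13 in fl/fl. Of the 10 knockouts, 8 lay above the highest fl/fl array. The difference was 0.53 ± 0.14 (95% interval 0.26 to 0.80), a level of 144.5% of fl/fl, and the limma adjusted p of 0.397 did not pass. It passed in 1 of 31 alternative settings, in which B cell and T cell gene means entered the fit as covariates. Irs1 stood at 7.26, 7.66 and 7.86 (lowest, median, highest) in knockout and at 7.11, 7.44 and 7.74 in fl/fl, with 3 knockouts above all fl/fl arrays. Its difference of 0.19 ± 0.087 had a limma adjusted p of 0.955. Igf1r, the receptor for insulin-like growth factor 1 and the closest relative of Insr, ran from 7.59 through 7.88 to 8.16 in knockout and from 7.34 through 7.59 to 8.17 in fl/fl. The knockout range lay within the fl/fl range, and the difference was 0.26 ± 0.092 (limma adjusted p = 0.714).

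Below the docking proteins, Pik3r3, a regulatory subunit of phosphoinositide 3-kinase, was lower in knockout (8.45, 8.61 and 8.67 against 8.54, 8.92 and 9.15 for lowest, median and highest). The difference was -0.30 ± 0.077 (limma adjusted p = 0.406), and all knockouts lay below the fl/fl median. Eif4ebp1, a repressor of cap-dependent translation that mTORC1 inactivates, differed by 0.22 ± 0.072 (limma adjusted p = 0.654) and by 0.16 without knockout replicate 2. Foxo3, a FoxO factor, differed by -0.16 ± 0.064 (limma adjusted p = 0.788). Among all 38 measured genes of a list of 44 insulin signalling components, 1 passed the test (Insr, lower) and 0 were called higher. At an unadjusted p under 0.05, 4 were higher and 3 lower, where 2.18% of all genes were higher and 2.84% lower at that limit. The list's median difference was 0.010, or 0.0057 without knockout replicate 2, and its sign changed under other scalings and with single other arrays left out. The median over all genes was -0.0047.

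Related lists gave few further genes. The 14 IGF ligands and binding proteins had a median of 0.063, or 0.034 without knockout replicate 2, with 0 members under an unadjusted p of 0.05. Of 22 measured genes that FoxO factors are reported to regulate, 12 were higher and 10 lower with a median of 0.025, which was -0.0044 without fl/fl replicate 1. The 3 under an unadjusted p of 0.05 were Insr, Irs2 and Eif4ebp1, which also stand in the insulin signalling list. Over all genes 5.02% were under that limit, and Insr is the gene targeted in the knockout.

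Across the transcriptome, 1 of 22180 genes (0.00451%) passed, and 2 genes (0.00902%) had an adjusted p under 0.10. At an unadjusted p under 0.05 there were 1114 genes (5.02%), 483 higher (2.18%) and 631 lower (2.84%), and at an unadjusted p under 0.001 there were 39 (0.176%). Higher genes made up 43.4% of those under 0.05, and 25.2% after each array was shifted to 1 median. The arrays bounded most differences. The 95% interval lay within a factor of 2 either way for 22042 genes (99.4%) and within 0.5 log2 for 21163 genes (95.4%), and the median absolute difference was 0.0535. Observed differences reached 1 log2 in 9 genes and 0.5 in 83, of which 40 had an unadjusted p under 0.05. The count of 1 was 2 to 10 under several other settings of the fit, and 4 without knockout replicate 2.

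**Figure D2:**
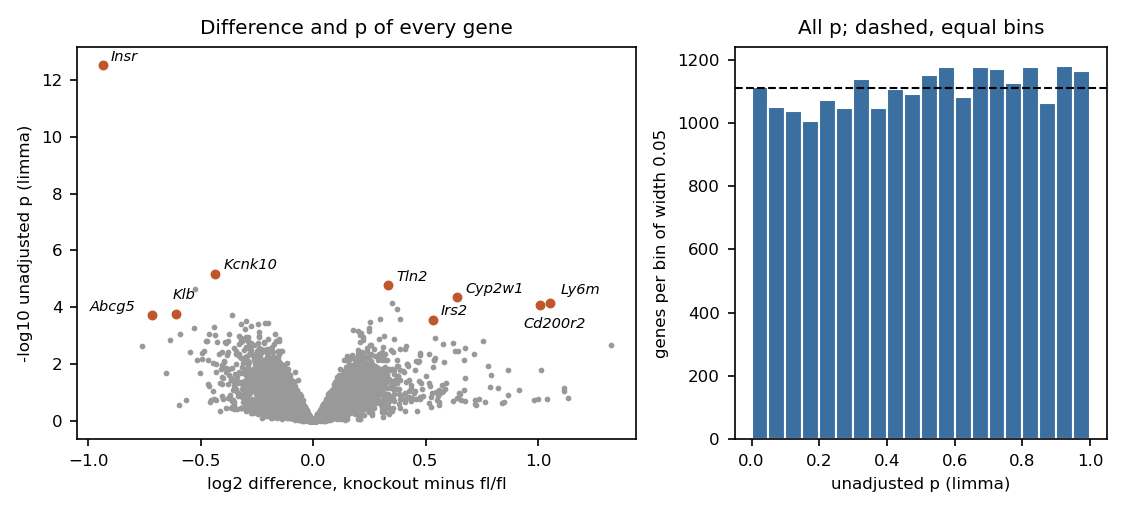
Left, knockout minus fl/fl difference (log2) of each of the 22180 genes in untreated colon against -log10 of its unadjusted limma p, with 9 genes labelled, of which Insr at -0.94 passed; right, the number of genes in bins of unadjusted p of width 0.05, with a dashed line where equal bins would lie. The lowest bin holds 5.02% of the genes, close to the dashed line.

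The 12 genes with the smallest p and a higher mean in knockout, none of which passed, included several membrane and signalling proteins. Ly6m, of the Ly6 family of surface proteins, was among the 9 genes whose difference reached 1 log2. Its lowest, median and highest values were 9.82, 10.6 and 11.2 in knockout and 8.71, 9.48 and 10.6 in fl/fl, and the groups overlapped. The difference was 1.05 ± 0.24 (limma adjusted p = 0.219). Cd200r2, a receptor of the CD200R family, stood at 4.92, 7.48 and 7.99 in knockout and 5.81, 6.30 and 6.65 in fl/fl. In 9 knockouts it was above every fl/fl array, while knockout replicate 2, at 4.92, was below them all. The difference of 1.01 ± 0.24 had a limma adjusted p of 0.232, and without that array it was 1.27 ± 0.19 and passed (limma adjusted p = 0.000149). Of 31 alternative settings, Cd200r2 passed in 2.

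Cyp2w1, a cytochrome P450, differed by 0.64 ± 0.14 (limma adjusted p = 0.196) and passed without knockout replicate 2, at 0.73 ± 0.14 (limma adjusted p = 0.0248). Cyp2w1 passed in 3 of 31 alternative settings. Tln2, a talin that links integrins to actin, differed by 0.33 ± 0.071 (limma adjusted p = 0.123), with values of 7.26, 7.78 and 8.12 in knockout and 7.31, 7.39 and 7.62 in fl/fl. It passed in 4 of 31 alternative settings, among them those without knockout replicate 7 and without knockout replicate 9. Mt1, a metallothionein that binds zinc and copper, was narrowly spread in knockout (11.82, 11.91 and 11.97) and wider in fl/fl (11.25, 11.64 and 11.85). The 0.30 ± 0.077 difference (limma adjusted p = 0.397) had 7 knockouts above all fl/fl arrays. Tmem176a, a membrane protein, had 9 knockouts above all fl/fl arrays, at 0.25 ± 0.069 (limma adjusted p = 0.536).

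Cdk14, a cyclin-dependent kinase that acts on Wnt co-receptors, ran from 6.88 through 7.29 to 7.53 in knockout and from 6.67 through 6.85 to 7.24 in fl/fl, a difference of 0.37 ± 0.090 (limma adjusted p = 0.281). The knockout median lay above the highest fl/fl value. The others were Mov10, an RNA helicase, at 0.39 ± 0.099, Spred1, an inhibitor of Ras signalling, at 0.25 ± 0.066, Map3k3, a kinase above the MAP kinases, at 0.18 ± 0.048, and Cfap20dc at 0.35 ± 0.081. Their limma adjusted p-values lay between 0.219 and 0.513.

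Of the 12 lower genes with the smallest p, Insr passed and Kcnk10 came next. Kcnk10 encodes TREK-2, a potassium channel opened by stretch and lipids. Its lowest, median and highest values were 6.36, 6.56 and 6.82 in knockout and 6.64, 7.02 and 7.26 in fl/fl, with 7 knockouts below every fl/fl array. The difference was -0.44 ± 0.087 (limma adjusted p = 0.0717). It passed in 6 of 31 alternative settings, including those without knockout replicate 4 and without fl/fl replicate 5.

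Klb, the co-receptor through which FGF15 and FGF21 act, stood at 6.97, 7.80 and 8.15 in knockout and at 8.03, 8.44 and 8.79 in fl/fl. In 8 knockouts it was below every fl/fl array, and the lowest was knockout replicate 2. The difference of -0.61 ± 0.15, a level of 65.6% of fl/fl, had a limma adjusted p of 0.355, and without that array it was -0.52 ± 0.15 (limma adjusted p = 0.53). Abcg5, part of a transporter that returns sterols to the gut lumen, stood at 6.14, 7.73 and 8.33 in knockout and at 7.97, 8.38 and 8.60 in fl/fl. It differed by -0.72 ± 0.18 (limma adjusted p = 0.355), and by -0.55 ± 0.16 without knockout replicate 2, its lowest array. Slc40a1, the iron exporter ferroportin, ran from 9.57 through 10.9 to 11.2 in knockout and from 10.8 through 11.4 to 11.6 in fl/fl. Its difference was -0.53 ± 0.14 (limma adjusted p = 0.481), and -0.40 ± 0.13 without the same array.

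Cdkn2b, the cyclin-dependent kinase inhibitor p15, was below every fl/fl array in 9 of the 10 knockouts, at -0.36 ± 0.090 (limma adjusted p = 0.355). It passed in 1 of 31 alternative settings, with the 20 untreated arrays fitted alone. Ppp1r3b, which brings protein phosphatase 1 to glycogen, differed by -0.32 ± 0.084 (limma adjusted p = 0.406). The others were the actin-associated adaptor Afap1l2 at -0.28 ± 0.074, the small GTPase Rap2a at -0.24 ± 0.065, the TGF-beta signal transducer Smad2 at -0.21 ± 0.056 and the focal adhesion protein Tes at -0.20 ± 0.053. Their limma adjusted p-values lay between 0.406 and 0.453.

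**Figure D3:**
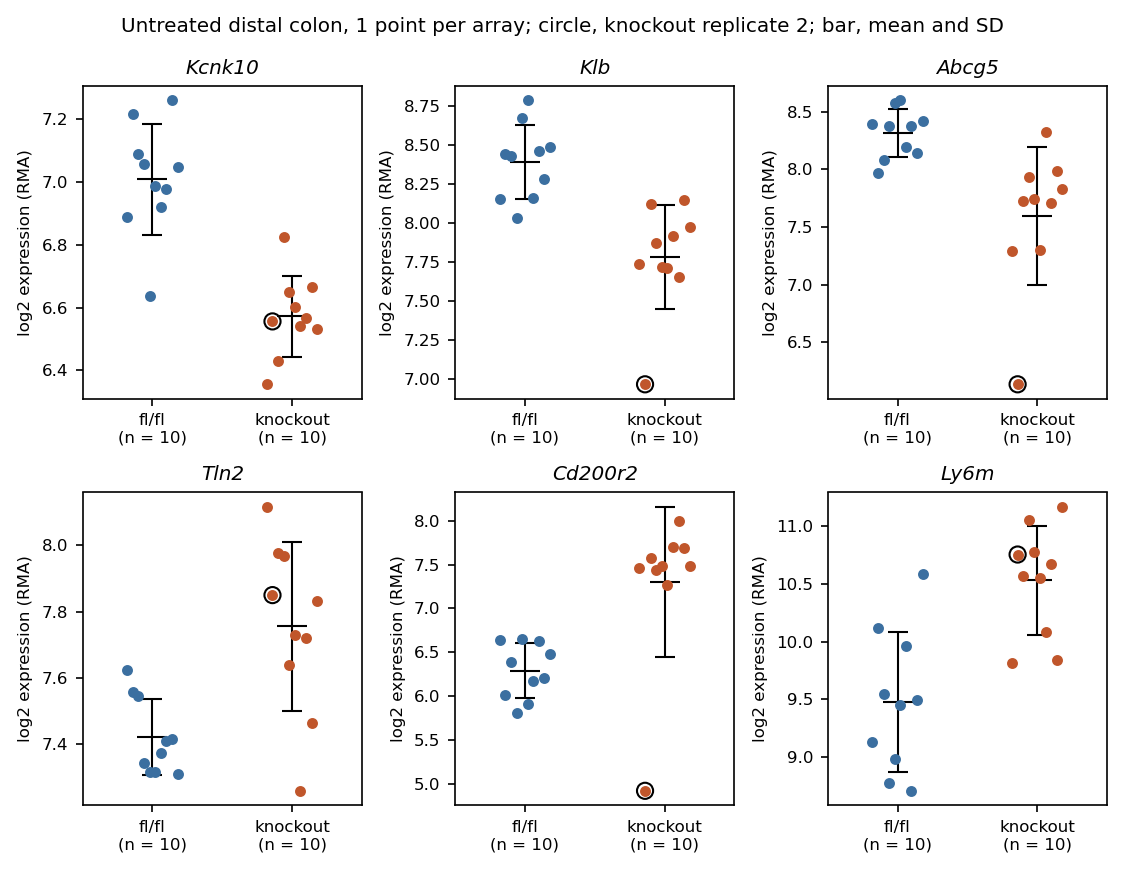
Log2 values of Kcnk10, Klb, Abcg5, Tln2, Cd200r2 and Ly6m in each untreated array, 1 point per array (fl/fl blue, knockout orange, n = 10 each), with bars for the group mean and SD and a circle around knockout replicate 2. That array is the lowest knockout for Cd200r2 (4.92), Klb (6.97) and Abcg5 (6.14) and not for Kcnk10, Tln2 or Ly6m.

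The same genotype contrast in AOM+DSS colon and in tumors rests on other arrays, which share the fit's spread. Insr fell there as well, by 0.84 ± 0.098 in AOM+DSS colon (limma adjusted p = 2.32e-07) and by 0.65 ± 0.11 in tumors (limma adjusted p = 0.00234). The interaction of genotype with condition had a limma adjusted p of 0.938 against AOM+DSS colon and 0.999 against tumors. Between untreated and AOM+DSS colon 0 genes had an interaction past the limma threshold, and 1351 genes (6.09%) had an unadjusted p under 0.05.

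Of the 24 genes named by p in untreated colon, Insr included, 21 had the same sign in AOM+DSS colon, 11 of the 12 higher and 10 of the 12 lower. The same sign was found for 53.5% of all genes, and for 63% of those under an unadjusted p of 0.05 in untreated colon. In tumors these shares were 50.3% and 50%. Of the 24 genes, 14 had the same sign and an unadjusted p under 0.05 in AOM+DSS colon, where 13.1% of all genes were under that limit in either direction. In tumors 15 of the 24 had the same sign, where 50.3% of all genes did, and 2 had an unadjusted p under 0.05 with it, where 4.46% of all genes were under that limit in either direction.

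Besides Insr, 3 of these genes passed in AOM+DSS colon, where 0.541% of all genes passed. Klb ran from 6.11 through 7.08 to 7.73 in AOM+DSS knockout and from 7.24 through 7.72 to 8.27 in AOM+DSS fl/fl, and it fell by 0.78 ± 0.15 (limma adjusted p = 0.00906). Mt1 ran from 11.62 through 11.77 to 11.82 against 10.65, 11.41 and 11.64, and it rose by 0.44 ± 0.077 (limma adjusted p = 0.00486). Cdk14 ran from 7.36 through 7.56 to 7.76 against 6.95, 7.12 and 7.72, and it rose by 0.38 ± 0.090 (limma adjusted p = 0.0356). The genotypes overlapped in each of the 3 genes, and the untreated difference had the same sign, at -0.61 for Klb, 0.30 for Mt1 and 0.37 for Cdk14. In tumors Klb differed by -0.0076, but it was dim there. Its tumor means were 5.62 in fl/fl and 5.61 in knockout, below the array medians of 5.92 to 6.04.

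Other genes had values in AOM+DSS colon that did not pass there. Pik3r3 differed by -0.28, Cdkn2b by -0.31, Slc40a1 by -0.45, Abcg5 by -0.36 and Kcnk10 by -0.18. Tln2 differed by 0.21, Tmem176a by 0.22 and Spred1 by 0.23. Tes, Afap1l2 and Cfap20dc had the opposite sign to untreated colon, at 0.00022, 0.053 and -0.011. Smad2 differed by -0.0017, Rap2a by -0.055, Ppp1r3b by -0.19, Mov10 by 0.071, Cyp2w1 by 0.12 and Map3k3 by 0.12. Irs2 differed by 0.23 ± 0.14 in AOM+DSS colon and by -0.045 in tumors. Ly6m and Cd200r2 differed by 0.24 and 0.21 there, and Ly6m by -0.72 in tumors. The Ly6m interaction between untreated colon and tumors was 1.77 with a limma adjusted p of 0.191.

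**Figure D4:**
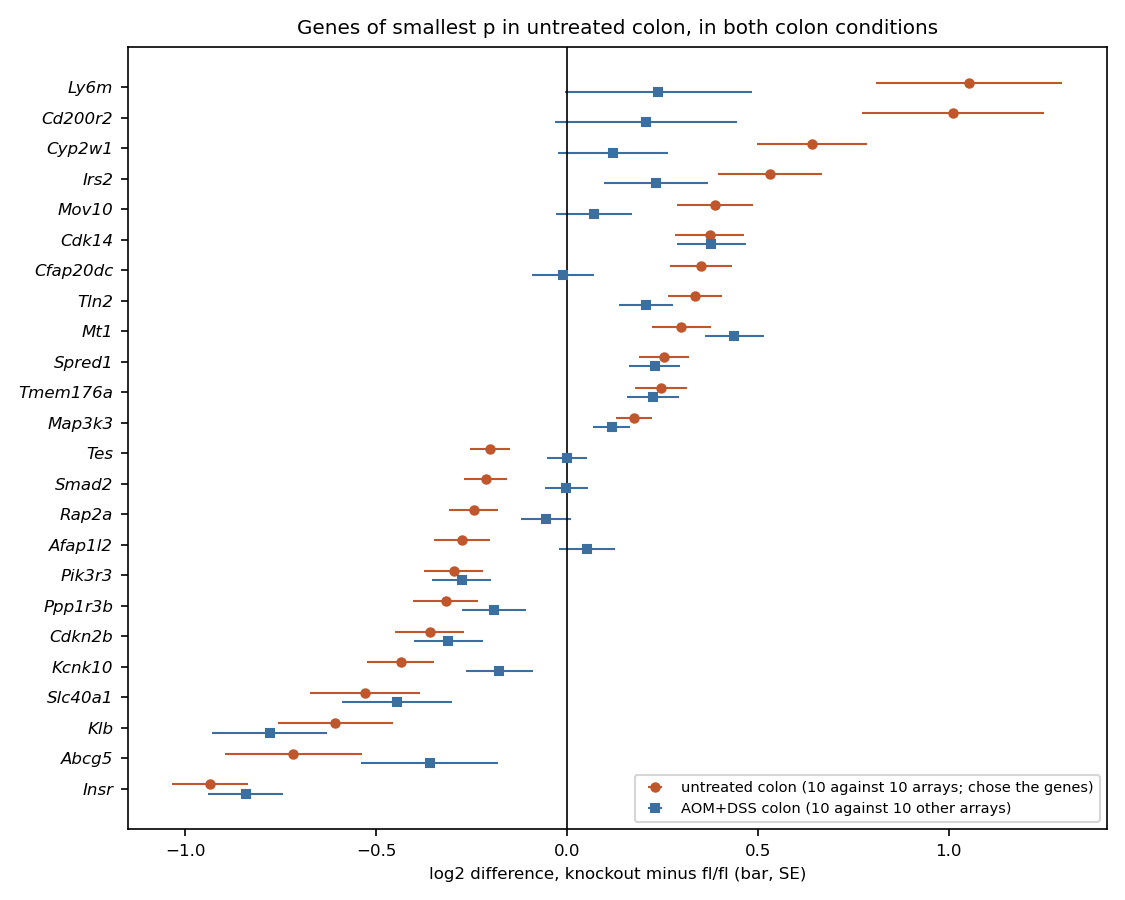
Knockout minus fl/fl difference (log2, x axis) of the 24 genes named by p, 1 gene per line, in untreated colon (orange circles), which chose the genes, and in AOM+DSS colon (blue squares), with bars of 1 SE. The circle and the square lie on the same side of 0 for 21 of the 24 genes, and for Insr they are at -0.94 and -0.84.

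Gene lists were described by their counts and their median difference, and none had a member other than Insr that passed. Over all genes 5.02% were under an unadjusted p of 0.05, 2.18% higher and 2.84% lower. Among metabolic genes, 16 of 21 measured genes of fatty acid oxidation and ketogenesis had a lower mean in knockout, with a median of -0.087. The 2 under an unadjusted p of 0.05 were Cpt2, which releases acyl groups to coenzyme A inside mitochondria, at -0.17 ± 0.065 and Hadha, a subunit of the trifunctional beta-oxidation protein, at -0.14 ± 0.055. Over all genes 11658 were lower and 10522 higher. Of 17 oxidative phosphorylation genes 15 were lower, by a median of -0.040, or -0.023 without knockout replicate 9, and 0 were under that limit. In the AOM+DSS contrast the medians of the 2 lists were -0.19 and -0.16, and in tumors -0.029 and 0.015.

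Of 21 measured fatty acid synthesis genes 15 were higher and 6 lower, with a median of 0.035, or 0.0094 without knockout replicate 2. Under an unadjusted p of 0.05, as were 5.02% of all genes, there were 2 genes of the list. Scd1, the stearoyl-CoA desaturase, was at 0.40 ± 0.17, and Acly, which makes cytosolic acetyl-CoA, at -0.15 ± 0.067. Without that array both were above the limit, Scd1 at 0.33 ± 0.17 and Acly at -0.098 ± 0.063. The sterol list of 19 measured genes had 11 higher and 8 lower, with a median of 0.050, or 0.0089 without the same array. In it Fdps, an enzyme of the mevalonate pathway, differed by 0.28 ± 0.11 and Insig1, which retains the sterol sensor in the endoplasmic reticulum, by -0.24 ± 0.091. In the glycolysis list of 20 measured genes the one under an unadjusted p of 0.05 was the glucose transporter Slc2a1, at -0.11 ± 0.055, and it was above the limit without knockout replicate 2 (-0.10 ± 0.057, unadjusted limma p = 0.0728). All 8 gluconeogenesis genes were above that limit.

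Colonocyte, stem, goblet and enteroendocrine cell lists had medians between -0.026 and 0.084, and the tuft cell list had 0.13. The pan-epithelial list had a median of -0.0075, with 6 of 14 genes higher and 0 under an unadjusted p of 0.05. The 13 colonocyte genes (median -0.026), the 15 measured stem cell genes (0.022), the 13 goblet cell genes (0.013) and the 14 measured enteroendocrine genes (0.084) also had 0 under it. Without knockout replicate 2 the colonocyte median was -0.013, the goblet median -0.069 and the enteroendocrine median 0.040. Of 11 measured tuft cell genes 10 were higher and 1, the taste G protein subunit Gnat3, was under the limit at 0.30 ± 0.14. Without that array the tuft cell median was 0.040, and Gnat3 was at 0.11 ± 0.099. Of 16 measured proliferation genes 14 were higher with a median of 0.029, which was -0.017 without knockout replicate 5 and 0.056 without knockout replicate 2. Of 18 Wnt target genes 14 were higher with a median of 0.054, or 0.031 without knockout replicate 2. Both lists had 0 under the limit.

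Ion transport genes included Scnn1b, the beta subunit of the epithelial sodium channel. It was lower in knockout at -0.43 ± 0.16 (limma adjusted p = 0.764). Best2, a bicarbonate-conducting channel of goblet cells, differed by -0.41 ± 0.20 (limma adjusted p = 0.982), and by -0.27 ± 0.19 without knockout replicate 2. Among 19 xenobiotic genes Cyp2c68 differed by -0.76 ± 0.24 and Gsta4, a glutathione transferase, by 0.38 ± 0.14, neither of them past the test. Of 16 measured clock genes Bhlhe41 and Per1, both transcriptional repressors of the clock, differed by 0.47 ± 0.17 and 0.31 ± 0.14, and Bhlhe40 by -0.18 ± 0.074. Without knockout replicate 2 Bhlhe40 was at -0.13 ± 0.070 and above the unadjusted limit.

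Immune genes were on the higher side for macrophages and interferon responses. All 12 macrophage genes had a higher mean in knockout, with a median of 0.16 and 5 under an unadjusted p of 0.05. Over all genes 10522 of 22180 had a higher mean, and 2.18% were higher under that limit. Csf1r, the receptor for colony stimulating factor 1, differed by 0.25 ± 0.086 (limma adjusted p = 0.673), the complement genes C1qb by 0.29 ± 0.10 and C1qa by 0.22 ± 0.088, and Ms4a7 by 0.27 ± 0.094. The list mean per array ran from 8.21 to 8.89 in knockout and from 8.21 to 8.68 in fl/fl, so the groups overlapped. The list's median stayed between 0.11 and 0.20 when any one array was left out.

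All 12 measured interferon-gamma and MHC class II genes had a higher mean in knockout, with a median of 0.27. Under an unadjusted p of 0.05 there were 2, or 5 without knockout replicate 2, where 2.18% of all genes were higher under that limit with all arrays. The 2 with all arrays were Gbp3, a guanylate-binding protein, at 0.58 ± 0.21 and H2-Eb1, an MHC class II chain, at 0.27 ± 0.13. Of 10 type I interferon genes 9 were higher with a median of 0.25, led by the nucleic acid sensor Zbp1 at 0.67 ± 0.21 and by Oasl2 at 0.63 ± 0.21. Single arrays carried much of the spread: knockout replicate 5 had the highest means of both lists (8.91 and 8.45) and fl/fl replicate 4 the highest of its group (7.95 and 8.06). Without knockout replicate 5 the median of the interferon-gamma list was 0.19 and that of the type I list 0.17. Without fl/fl replicate 4 they were 0.36 and 0.34. The macrophage mean was 8.59 in knockout replicate 5 and 8.68, the highest of its group, in fl/fl replicate 4. The part of macrophages in the interferon values was not tested.

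Other blood cell lists held 0 or 1 gene under an unadjusted p of 0.05. The 9 measured B cell genes were all lower by a median of -0.17, which was -0.046 without fl/fl replicate 8. The B cell median was 0.61 in AOM+DSS colon and 0.041 in tumors. Of 11 T cell genes 10 were higher, with a median of 0.14, or 0.081 without fl/fl replicate 9. The T cell median was 0.42 in AOM+DSS colon and 0.016 in tumors. The mast cell protease Cma1 differed by 0.41 ± 0.13 (limma adjusted p = 0.654), with a median of 0.0040 over the 8 mast cell genes, or 0.022 without knockout replicate 2.

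The largest list medians came from genes that varied widely within each genotype. Small-intestinal enterocyte genes had a median of 0.56, with 10 of 12 higher and 0 under an unadjusted p of 0.05. Sucrase-isomaltase (Sis) differed by 1.14 ± 0.78 and ran from 4.65 to 9.92 in knockout and from 4.63 to 8.83 in fl/fl. Antimicrobial and Reg genes had a median of 0.46, or 0.34 without knockout replicate 2, with 11 of 15 higher and 0 under the limit. Reg3g, a bactericidal lectin, differed by 1.11 ± 0.64. The distal colon position list had a median of -0.16, which was 0.018 without knockout replicate 2. In that array Hoxd13 was at 6.11, where the other knockouts were at 10.3 to 10.6. The adipocyte median of 0.18 was 0.058 without the same array. The squamous epithelium median was 0.0041, or 0.075 without that array. It ran from -0.22 without knockout replicate 9 to 0.30 without fl/fl replicate 1. In AOM+DSS colon the medians had the opposite sign for the small-intestinal (-0.31), antimicrobial (-0.22) and adipocyte (-0.21) lists, and the difference between the conditions was not tested for lists. The AOM+DSS medians were 0.24 for macrophage, 0.32 for interferon-gamma and 0.19 for type I interferon genes.

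**Figure D5:**
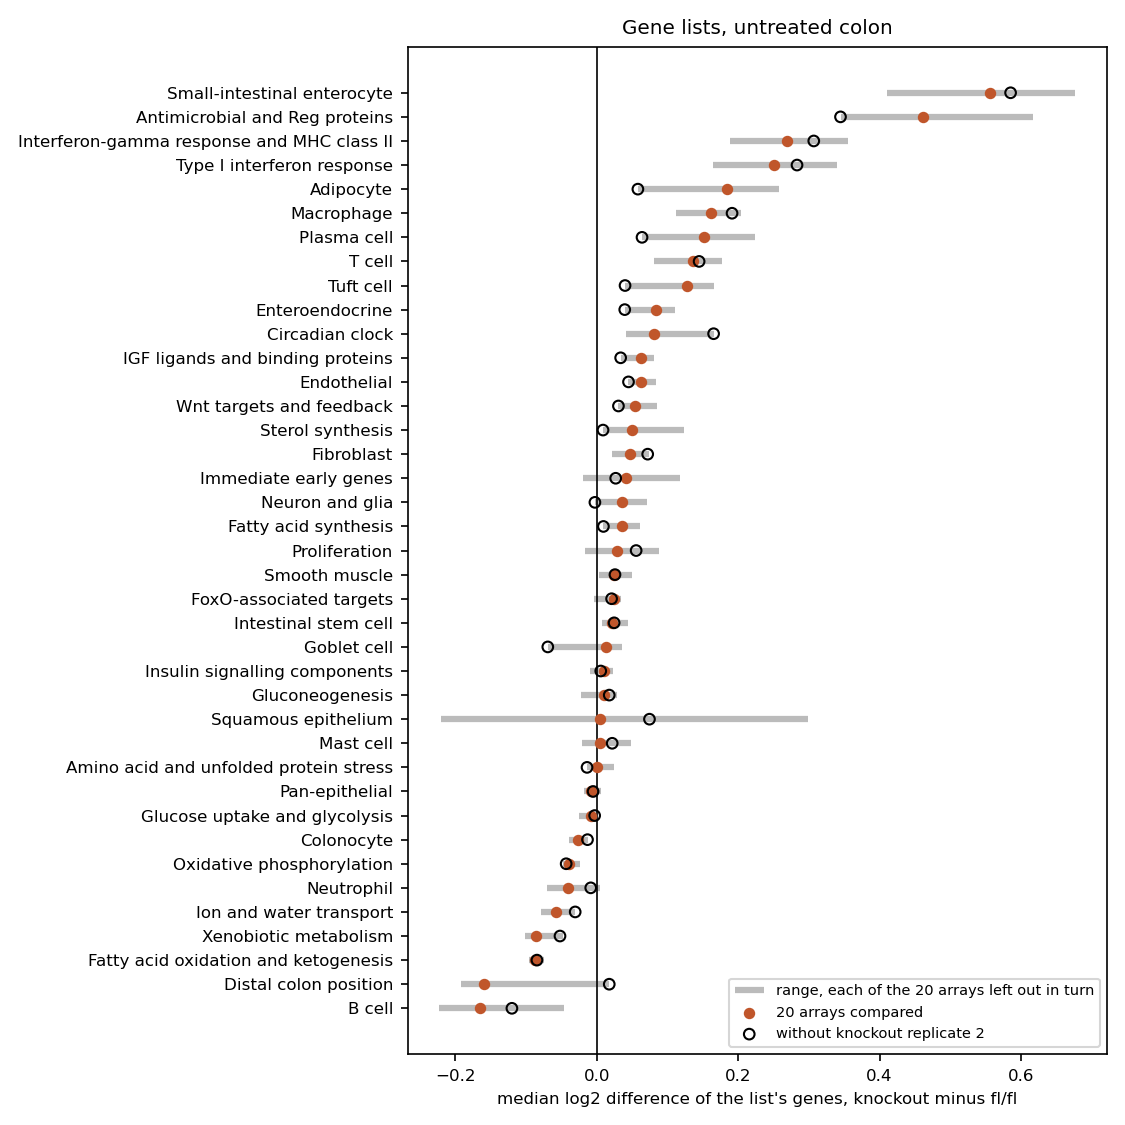
Median knockout minus fl/fl difference (log2, x axis) over the measured genes of each of 39 lists in untreated colon, with all 20 arrays (orange points), without knockout replicate 2 (open circles) and over each array left out in turn (grey range). Medians run from -0.17 (B cell) to 0.56 (small-intestinal enterocyte), the distal colon position list moves from -0.16 to 0.018 without knockout replicate 2, and the grey range of several lists near 0 crosses it.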

How the data were processed

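RNA of 57 samples in 6 groups of genotype and condition was measured on 1-colour Affymetrix arrays. The authors deposited log2 expression values, which came from RMA according to the labels and per the submitters' processing notes (its version is not given in the sources used here). RMA normalizes arrays to one distribution, so a change in total RNA cannot be seen, and it compresses differences of dim genes. Of 41345 probe sets, 23521 carry 1 gene symbol, 1814 carry several and 16010 are unnamed here. Several probe sets were present for 1082 genes, of which only the brightest entered, so that 22180 genes were tested, dim ones included. Array medians lay between 5.92 and 6.04, and precision is limited by the number of arrays. Groups came from the sample titles.

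Differences were fitted with limma 3.58.1 in R 4.3.3 (lmFit, contrasts.fit, eBayes) over all 57 arrays and 6 groups, with 51 residual degrees of freedom. Tests were two-sided, and p-values were adjusted over the 22180 genes by Benjamini-Hochberg. The groups thus share an estimate of the spread. The fit was tested on simulated data. The genes and the 40 lists were chosen with earlier results of these data known, and 1 list (red blood cell) had no measured member. List members without a single-symbol probe set were not used here. Named genes were Insr, Igf1r, Irs1 and Irs2, the 12 higher and 12 lower genes with the smallest p, insulin signalling genes with an unadjusted p under 0.05, and up to 4 genes of smallest p per other list. Histone, olfactory and vomeronasal genes, receptor segments, small RNAs and predicted models were tested but are not named. Promoter windows are from RefSeq (GRCm38.p6), which matched 20 of the 26 named genes. Alternatives changed the normalization, the filter on dim genes, the probe set rule, the variance model, covariates and single arrays.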

Additional observations from a re-analysis of the deposited data

Results flagged for a closer look

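In each untreated group of 10, the named genes and the list means were searched for an array whose gap to its nearest neighbour is large against the group's range. Such a search marks about 1 in 20 groups by chance, and 18 of 130 were found here.

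Knockout replicate 2 accounts for many of them. Among named genes it was below the others for Cd200r2 (4.92, others 7.26 to 7.99), Klb (6.97, others 7.66 to 8.15), Abcg5 (6.14, others 7.29 to 8.33) and Slc40a1 (9.57, others 10.7 to 11.2). Its list means were above the others for colonocyte (11.96), goblet cell (12.01), enteroendocrine (8.36) and tuft cell genes (7.11), and below them for distal colon position (6.93, others 8.69 to 8.92).

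Interferon genes were highest in 1 array of each genotype. In knockout replicate 5 the type I interferon mean was 8.45 (others 7.13 to 7.67) and the interferon-gamma and MHC class II mean 8.91 (others 7.18 to 8.02). In fl/fl replicate 4 these means were 8.06 and 7.95, the macrophage mean was 8.68 (others 8.21 to 8.39) and the xenobiotic mean was low at 9.02 (others 9.30 to 9.46). The remaining values were Cdkn2b in knockout replicate 6 (8.85), the sterol synthesis mean in fl/fl replicate 2 (9.91) and the small-intestinal enterocyte mean in fl/fl replicate 10 (8.27, others 6.73 to 7.31).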

How the results depend on the processing

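Insr passed under every alternative run, with a difference between -0.97 and -0.90 over all of them, single arrays left out included. The count of genes passing was 1 as reported, and 2 with each array shifted to 1 median or after further quantile normalization (Kcnk10 added), 2 at an adjusted p under 0.10, 5 on the 20 untreated arrays alone (Kcnk10, Cdkn2b and Nrg1 among them), 10 with array weights (7 of them higher, including Cd200r2, Cyp2w1, Cdk14, Tln2, Tmem176a and Ly6m) and 5 with B cell and T cell means as covariates (Cyp2w1, Cfap20dc, Irs2 and Tln2 added). Leaving out 1 array gave 1 to 4 genes: 4 without knockout replicate 2 (Cd200r2, Cyp2w1 and Clps added) and 2 without knockout replicate 4, 7 or 9 or fl/fl replicate 5. Nrg1 and Clps were named after their values were seen. The other 23 genes named by p, with Igf1r and Irs1, kept their sign in all 774 values. Genes named from the other lists were rerun only without knockout replicate 2. Of those described above, Hoxd13 turned there from -0.41 to 0.029. Some list genes not described above turned as well, such as Retnlb from 0.46 to -0.16. With the replicate number as a block, 1 gene passed (Insr, limma adjusted p = 0.000182). The deviations of same-numbered arrays from their group means had a correlation over 0.1 in 5 of 10 pairs (correlations from -0.32 to 0.276). Only 1 of the 10 knockout arrays correlated best with the fl/fl array of its own number. The numbers were therefore not taken to pair the samples. Of the 24 genes named by p, 20 to 22 kept their sign in AOM+DSS colon. The relation of Insr with smooth muscle genes in fl/fl arrays turned from r = 0.0726 to -0.106 after further quantile normalization, and the cause was not tested. The list medians with arrays left out and the AOM+DSS signs under other settings were added after seeing the data. Dim genes are limited by the arrays' background, which the deposited values do not show.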
